A study of Mus musculus with 5 samples.

Results

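The lytic granule proteins described here are 9 granzymes and perforin, encoded by Gzma, Gzmb, Gzmc, Gzmd, Gzme, Gzmf, Gzmg, Gzmk, Gzmm and Prf1. They were taken as every probe set that the platform annotation pairs with exactly 1 of these symbols, which gave 12 probe sets for 10 of the 18193 genes named on the array. Expression was measured on 1-colour arrays in cultures from 2 sources, a CD8 T cell clone and spleen cells of receptor-transgenic mice. G9C8 is a cytotoxic T cell clone kept in culture, and 3 separately frozen vials of it gave 3 arrays, so that all of them stand for 1 clone. The NOD.G9C8 transgenic group consisted of spleen cells of 2 mice aged 4 to 8 weeks on the NOD/LtJ background, an autoimmune diabetes strain, that carry the clone's receptor as a transgene, with 1 array per mouse. The labels give a background strain for the transgenic arrays only, and neither the promoter of the transgene nor what other lymphocytes the mice keep. All cultures had 3 days with the insulin B peptide (10 µg/ml) followed by 2 days of rest in IL2 (5 IU/ml), and neither an unstimulated culture nor a sort before RNA extraction is named. The error behind each test is thus how far vials of a single clone and a pair of mice varied.

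Granzymes are serine proteases that cytotoxic T cells and natural killer cells store in granules and release onto a target cell, where perforin forms pores that let them enter. Granzyme B cuts after aspartate and starts apoptosis by cleaving caspases and Bid, granzymes A and K cut after basic residues, and granzyme M after methionine or leucine. Granzymes C to G are rodent relatives of granzyme B that arose by gene duplication, and their functions are less well known.

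The members lie in 4 places of the mouse genome. Gzma and Gzmk are adjacent coding genes on chromosome 13, and Prf1 and Gzmm lie far apart on chromosome 10. The other members form a row on chromosome 14 in the order Gzme, Gzmd, Gzmg, Gzmf, Gzmc and Gzmb, interrupted among coding genes by 1 further granzyme gene, Gzmn, between Gzmg and Gzmf. The windows from 250 bases before to 50 bases after the annotated start, from RefSeq (GRCm38.p6), are shown for the adjacent pair on chromosome 13, whose signals differed between the sources in opposite directions, for Gzmb, which was bright in both and not called, and for Gzmd, Gzme and Gzmg, close relatives with lower clone than transgenic signals. Each runs 5′ to 3′ on the gene's strand, and capitals mark letters that match a searched motif on either strand.
Gzma, chr13:113100932-113101231, minus strand: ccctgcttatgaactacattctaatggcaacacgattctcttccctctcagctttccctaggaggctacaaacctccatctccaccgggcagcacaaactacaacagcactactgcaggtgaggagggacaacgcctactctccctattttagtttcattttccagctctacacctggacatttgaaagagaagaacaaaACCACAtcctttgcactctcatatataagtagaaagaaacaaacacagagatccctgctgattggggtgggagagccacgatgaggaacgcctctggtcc
Gzmk, chr13:113180916-113181215, minus strand: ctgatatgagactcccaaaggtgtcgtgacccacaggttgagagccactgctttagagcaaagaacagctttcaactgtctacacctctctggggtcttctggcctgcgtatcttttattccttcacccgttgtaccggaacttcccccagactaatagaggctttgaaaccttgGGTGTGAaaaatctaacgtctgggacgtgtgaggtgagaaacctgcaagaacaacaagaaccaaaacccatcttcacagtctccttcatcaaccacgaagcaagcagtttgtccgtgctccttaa
Gzmb, chr14:56262285-56262584, minus strand: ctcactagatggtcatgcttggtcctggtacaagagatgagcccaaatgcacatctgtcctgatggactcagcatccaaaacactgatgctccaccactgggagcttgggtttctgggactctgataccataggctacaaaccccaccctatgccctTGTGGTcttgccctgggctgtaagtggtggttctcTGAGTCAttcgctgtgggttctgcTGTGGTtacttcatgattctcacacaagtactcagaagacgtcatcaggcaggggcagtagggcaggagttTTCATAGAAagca
Gzmd, chr14:56132544-56132843, minus strand: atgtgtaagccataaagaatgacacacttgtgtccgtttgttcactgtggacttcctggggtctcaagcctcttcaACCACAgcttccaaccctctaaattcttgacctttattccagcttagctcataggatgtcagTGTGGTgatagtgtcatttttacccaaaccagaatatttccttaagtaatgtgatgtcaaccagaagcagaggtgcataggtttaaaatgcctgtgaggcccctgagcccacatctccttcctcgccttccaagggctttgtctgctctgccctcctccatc
Gzme, chr14:56120576-56120875, minus strand: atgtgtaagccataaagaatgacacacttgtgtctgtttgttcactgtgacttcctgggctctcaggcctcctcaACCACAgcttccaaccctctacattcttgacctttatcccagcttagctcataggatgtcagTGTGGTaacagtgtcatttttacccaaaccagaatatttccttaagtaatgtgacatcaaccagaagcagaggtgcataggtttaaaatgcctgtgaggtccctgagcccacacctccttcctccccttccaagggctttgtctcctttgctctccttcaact
Gzmg, chr14:56159530-56159829, minus strand: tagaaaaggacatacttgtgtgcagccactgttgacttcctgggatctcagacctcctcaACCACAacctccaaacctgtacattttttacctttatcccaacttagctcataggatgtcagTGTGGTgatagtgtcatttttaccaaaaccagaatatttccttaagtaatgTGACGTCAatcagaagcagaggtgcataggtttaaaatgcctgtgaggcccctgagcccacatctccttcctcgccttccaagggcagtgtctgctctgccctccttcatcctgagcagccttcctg

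The windows of Gzmc, Gzmd, Gzme, Gzmf and Gzmg are close copies of each other. In local alignments Gzmd and Gzme were identical at 280 of 298 aligned positions (94.0%), and Gzmc, the most distant of the 5, at 84.8% to 86.2% with the others. Gzmb aligned with them over short stretches only, the longest being 24 identical of 30 positions with Gzmg, and the best local alignment of the adjacent genes Gzma and Gzmk was as short (24 of 30). Searched motifs were TGTGGT (Runx, in 16.8% of all 32851 promoter windows of the table), GGTGTGA (T-box, 4.0%), TGANTCA (AP-1, 7.8%), TGACGTCA (CRE, 1.8%) and TTCNNNGAA (STAT, 8.3%), and no matches overlapped. The Runx letters occurred in pairs in Gzmb, Gzmc, Gzmd, Gzme, Gzmf and Gzmg and as 1 match in Gzma, Prf1 and 1 of the 2 windows of Gzmm. STAT letters were found in Gzmb and Gzmm. The CRE letters stood in Gzmc, Gzmf and Gzmg, and AP-1 letters in Gzmb alone of the members. The Gzmk window held the T-box letters and none of the others, and the second Gzmm window held T-box letters too. These matches describe letters in the windows and say nothing about binding.

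Signals are array intensities as deposited, and differences are clone minus transgenic in log2(signal + 20) with 95% confidence intervals from a limma fit over 27022 probe sets. Of these, 19.8% were called higher and 22.1% lower in clone at an adjusted p under 0.05, with a median difference of -0.04. Probe sets with a mean signal under 88.2, the 40th percentile, were treated as dim and left out of that fit. Of the 12 member probe sets 10 were tested, for 8 of the genes: 1 was called higher, 5 lower and 4 were not called. The clone and transgenic arrays did not overlap for 7 of the 10, against 63.8% of all probe sets tested. Gzmd and Gzme passed the filter only through the transgenic arrays, so these counts are descriptions. The median difference of the tested member probe sets was -0.74 with the 3 probe sets of Gzmd and Gzme and -0.07 over the other 7. In whole cultures, fewer cells of a type and less RNA per cell cannot be told apart. Nothing in the array values shows which probe sets lie above background, and the levels of different probe sets are not comparable with each other.

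**Figure D1:**
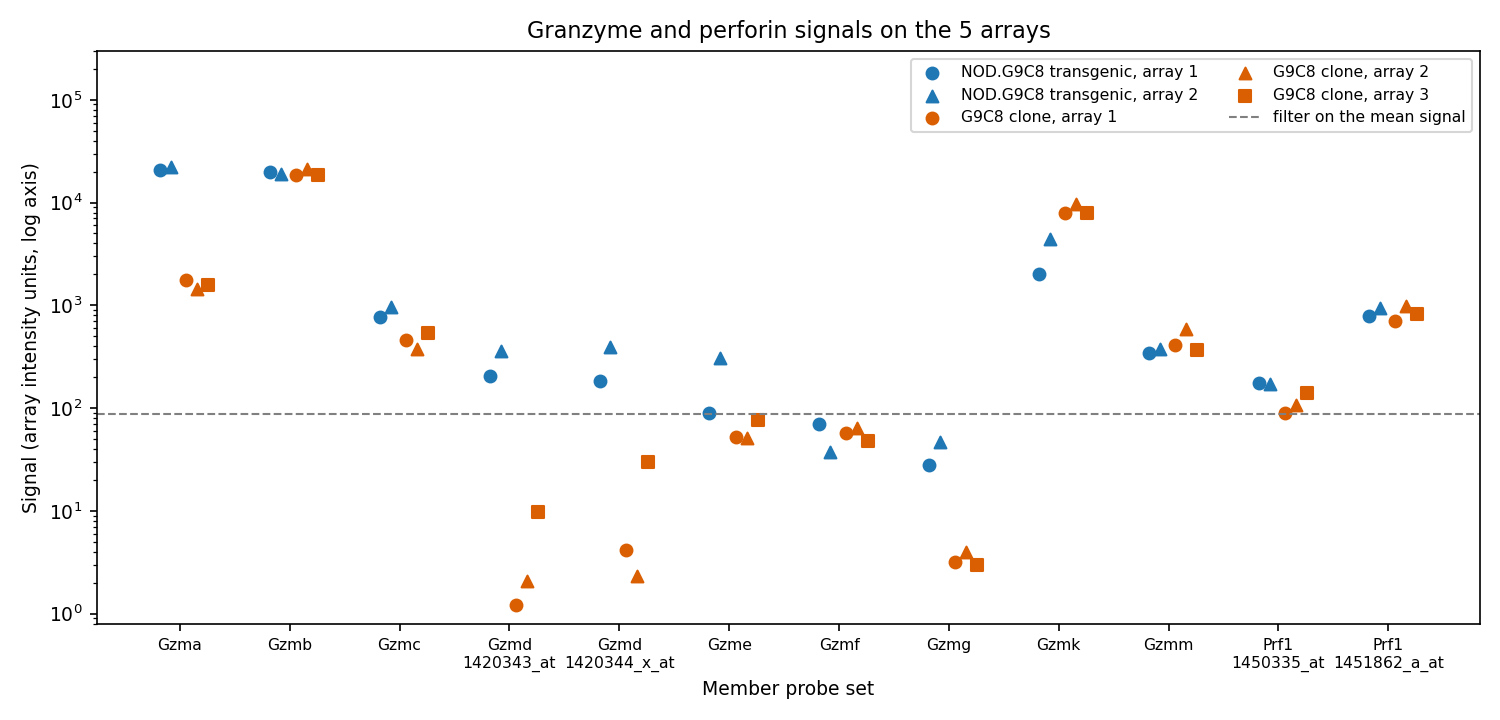
Signal of each member probe set (log axis, intensity units) on the 2 transgenic arrays (blue) and the 3 clone arrays (orange); the dashed line is the filter level of 88.2. Gzmb lies between 18557 and 21317 on all 5 arrays, Gzma separates the groups with the transgenic arrays on top, Gzmk separates them with the clone arrays on top, and Gzmd and Gzmg fall under 30 in clone.

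Granzyme A was much lower in clone. Transgenic signals of Gzma were 20849 and 22168, and clone signals 1759, 1438 and 1577. The groups were far apart and each was tight, with the second transgenic array 1.06 times the first and the highest clone array 1.22 times the lowest. The difference was -3.74 (-3.99 to -3.50; SE 0.11; limma adjusted p = 1.59e-07), a 13.4-fold lower value in clone, with means of 1591 ± 161 (SD, n = 3) and 21509 ± 933 (SD, n = 2). Its clone signals still lay above 88.7% of the probe sets on an array, far above the filter level, and its transgenic signals reached the level of 99.9% of an array's probe sets. Under the 17 alternatives the difference stayed between -3.82 and -3.67.

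Granzyme K, the gene next to it, went the other way. Transgenic signals of Gzmk were 2014 and 4375, and clone signals 7835, 9582 and 8000. All 3 clone arrays lay above both transgenic arrays, and the mice differed from each other more than the vials did. Means were 8472 ± 964 (SD, n = 3) in clone and 3194 ± 1669 (SD, n = 2) in transgenic cells. The difference was 1.50 (0.89 to 2.11; SE 0.27; limma adjusted p = 0.00226), or 2.83-fold higher. Its size rested on which mouse was used: it was 0.94 without the first transgenic array and 2.06 without the second. Such a fit has no spread between mice in its error. Relative to Gzma within each array, Gzmk was 5.24 higher in clone on the log2 scale, and the nearest arrays of the groups were still 4.48 apart. An exact two-sided permutation test of this contrast gave p = 0.2, the smallest that 3 against 2 arrays allow, as it did for each of the 3 contrasts computed (adjusted p = 0.2, exact).

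Granzyme B, the caspase-cleaving member, was not called. Transgenic signals of Gzmb were 20043 and 19046, clone signals were 18557, 21317 and 18732, and the groups overlapped. Means were 19535 ± 1545 (SD, n = 3) in clone and 19545 ± 705 (SD, n = 2) in transgenic cells. The interval of the difference ran from -0.21 to 0.20 (limma adjusted p = 0.982). Its signals lay above 99.7% to 99.8% of probe sets on every array, and the highest signals of any probe set were 25836 to 30579, which leaves little room above them. Relative to Gzmb within each array, Gzma was lower in clone by a contrast of -3.74 and Gzmc by one of -0.90, with no overlap of the groups in either.

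Granzyme C, whose gene is next to that of granzyme B, was the only one of the close relatives with clone signals above the filter level. Transgenic signals of Gzmc were 764.1 and 971.4, and clone signals 458.8, 375.5 and 536.6. The groups did not overlap, but the gap between them was of the order of the spread within each. The difference was -0.90 (-1.30 to -0.50; SE 0.18; limma adjusted p = 0.00371), 1.87-fold lower in clone. It kept its call under all 17 alternatives, with differences from -1.07 to -0.73.

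Granzyme D was lower in clone by both of its probe sets, with clone signals near the bottom of the arrays. In 1420343_at, transgenic signals of Gzmd were 204.0 and 362.2, and clone signals 1.2, 2.1 and 9.8. The second one, 1420344_x_at, whose suffix marks probes that may also bind other transcripts, gave 183.7 and 389.6 against 4.2, 2.3 and 29.6. The second transgenic array was the higher in both, and the third clone array was the highest of its group in both. Differences were -3.60 (-4.50 to -2.71; SE 0.39; limma adjusted p = 0.000159) and -3.27 (-4.35 to -2.19; SE 0.47; limma adjusted p = 0.000736). Both probe sets entered the fit only through their transgenic signals, so these values are descriptions as well. With clone signals this low the size follows the pseudocount: for 1420343_at it was -6.02 with a pseudocount of 1, -2.58 with one of 50 and -2.44 with signals under 50 set to 50, called each time, and over all alternatives 1420344_x_at ran from -5.06 to -2.40. A further probe set, 1421227_at, which the annotation gives to both Gzme and Gzmd and which is therefore no member here, gave 84.9 and 196.6 against 18.9, 1.9 and 4.3.

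Granzyme E was lower by a smaller margin that depended on the second mouse. Gzme, measured by 1450171_x_at, whose suffix marks probes that may also bind other transcripts, had transgenic signals of 89.3 and 309.3 and clone signals of 52.7, 51.6 and 76.6. The groups did not overlap, yet the first transgenic array lay nearer to the clone arrays than to the second transgenic one. The difference of -1.25 (-2.26 to -0.25; SE 0.44) only just passed the test (limma adjusted p = 0.0478), which Gzme entered only through its transgenic signals. It was -0.46 without the second transgenic array and -2.05 without the first, in fits with no spread between mice in their error. The call ended without any 1 of the clone arrays (limma adjusted p = 0.0625 to 0.106).

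Granzymes F and G were dim. Transgenic signals of Gzmf were 70.6 and 37.0, clone signals were 57.6, 64.1 and 48.0, and the groups overlapped. Gzmg gave 28.1 and 47.2 against 3.2, 4.0 and 3.0, with every clone array below both transgenic arrays and every array below the filter level. In a fit without a filter the Gzmg difference was -1.28 (-1.75 to -0.81; limma adjusted p = 0.00400) and the Gzmf difference 0.09 (-0.64 to 0.81; limma adjusted p = 0.878). Among the close relatives Gzmc, Gzmd, Gzme and, at dim signals, Gzmg were lower on all clone arrays than on both transgenic arrays. Gzmf, whose window also aligned closely with theirs, had overlapping groups at dim signals. Of all probe sets tested, 63.8% had groups that did not overlap. Whether the probe sets of these relatives also bind each other's transcripts was not tested, so the genes may not be separate observations.

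Granzyme M and perforin gave no call. Transgenic signals of Gzmm were 346.2 and 376.9, and clone signals 414.1, 594.3 and 371.5, overlapping through the third clone array, with a difference of 0.30 (-0.15 to 0.76; limma adjusted p = 0.258). Of the probe sets of Prf1, the brighter, 1451862_a_at, gave 787.2 and 949.6 against 695.9, 986.7 and 815.6, a difference of -0.07 (-0.44 to 0.31; limma adjusted p = 0.773). The dimmer, 1450335_at, gave 176.7 and 172.1 against 89.4, 107.7 and 140.8, with all clone arrays below the transgenic ones and a difference of -0.57 (-1.11 to -0.03) that missed the threshold (limma adjusted p = 0.0855). It passed without the third clone array (-0.72, limma adjusted p = 0.0470). The interval of the dimmer probe set reaches a difference of -1.11, so a p over the threshold does not show equal perforin levels.

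**Figure D2:**
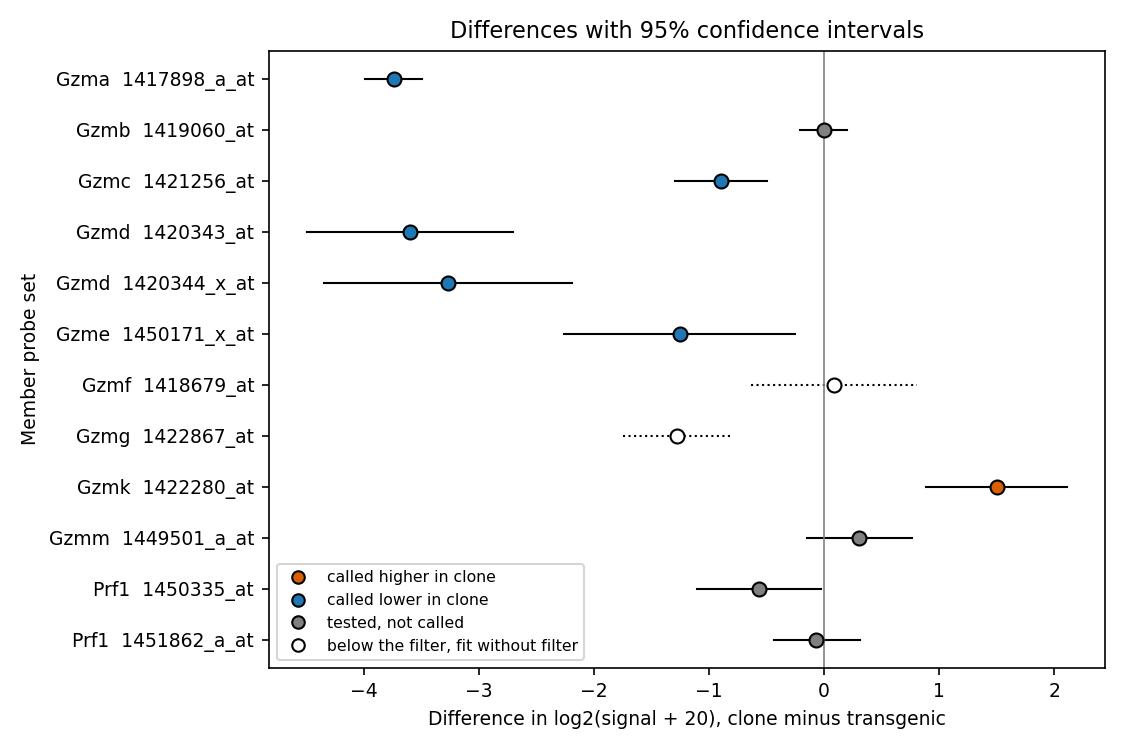
Difference in log2(signal + 20), clone minus transgenic, of the 12 member probe sets with its 95% confidence interval; filled points were tested, open points with dotted lines were dim and come from a fit without a filter. Gzma and both Gzmd probe sets lie near -3.5, Gzmk alone is called higher at 1.50, and the interval of Gzmb spans 0 closely.

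The mice differed in part of these genes. On the second transgenic array 9 of the 12 member probe sets were higher than on the first, against 48.5% of all probe sets tested. The 12 include the dim, untested Gzmf and Gzmg. The ratio was 3.46 for Gzme, 2.17 for Gzmk, 2.12 and 1.78 for the Gzmd probe sets, 1.68 for Gzmg and 1.27 for Gzmc. A ratio of at least 2 was seen in 1.61% of all probe sets tested. Gzma (1.06), Gzmb (0.95), Gzmm (1.09) and the dimmer Prf1 probe set (0.97) were close to equal in the mice. The brighter Prf1 probe set had a ratio of 1.21, and Gzmf, at dim signals, one of 0.52. With 1 array per mouse this is a description of those mice.

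**Figure D3:**
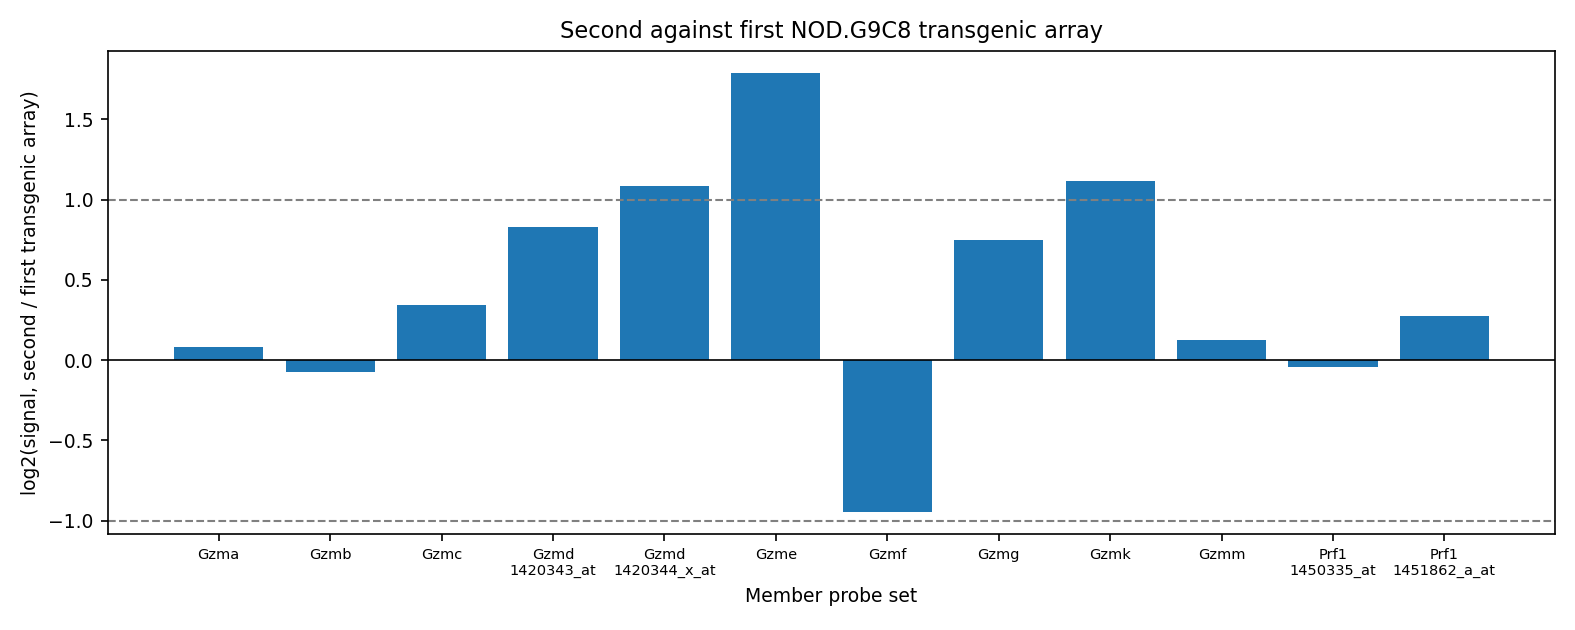
Log2 ratio of the second over the first transgenic array for each member probe set; dashed lines mark a ratio of 2 either way. Gzme, Gzmk and the Gzmd probe set 1420344_x_at exceed a ratio of 2, and Gzma, Gzmb and Gzmm lie near 0.

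Markers of other cells were recorded beside these values, since spleen cultures can hold them. Markers named here include those of highest mean signal in a group, which is a choice and no comparison of levels. T cell markers summed to 69698 and 62829 on the transgenic arrays and 45309 to 52260 on the clone arrays. Cd3d gave 18700 and 16264 against 11109 to 14072, and Cd3g, not called, gave 14158 and 12565 against 12024 to 13626. Cd8a was 14192 ± 1849 (SD, n = 2) in transgenic cells and 8808 ± 492 (SD, n = 3) in clone, and Cd4 stayed below the filter level on all arrays. The 11 macrophage and granulocyte markers summed to 5394 and 7952 on the transgenic arrays and 1603 to 1930 on the clone arrays. On the second transgenic array 8 of them were higher, among them Lyz2 (3497 and 5549 against 237.1 to 326.9 in clone). Cd68 went the other way between the groups, at 398.9 and 546.0 against 569.8 to 827.5 in clone, and was not called. Elane and S100a9 were below the filter level throughout. The 6 natural killer markers measured summed to 977 and 1278 against 374 to 393, including Tyrobp (379.3 and 568.7 against 17.5 to 27.8), which myeloid cells also express. Klre1 gave 133.7 and 179.2 against 69.9 to 106.1, and the defining receptor Ncr1 gave 78.6 and 55.1 against 75.9 to 91.0. Of the 9 mast cell and basophil markers, which sit partly in the same chromosome 14 region, Mcpt4 and Hdc were below the filter level on every array. Kit was bright on the transgenic arrays (1581 and 653.2, against 39.3 to 52.8), and Gata2 gave 382.7 and 408.2 against 101.4 to 204.7. Both were called lower, whereas Cpa3 (152.6 and 146.7 against 60.3 to 111.7), Ms4a2, Tpsb2 and Cma1 were not called and Mcpt8 was dim. B cell markers summed to 1413 and 1285 against 618 to 981, with Cd79b at 654.5 and 594.0 against 2.7 to 46.0. The other B cell markers were dim or not called, among them Cd22 at 348.7 and 190.7 against 245.3 to 375.7. Plasmacytoid dendritic cell markers summed to 6348 and 7137 against 2317 to 2488, including Ccr9, which T cells also express (4993 and 5857 against 570.4 to 956.4). Irf8 was also lower (-1.23), Bst2 was higher (811.3 and 747.8 against 1165 to 1312), and Siglech and Tcf4 were not called. The lower clone sums of these 2 lists thus rest largely on Cd79b and Ccr9. That of the macrophage and granulocyte list rests largely on Lyz2. The natural killer sum rests largely on Tyrobp and Fcer1g (178.7 and 393.0 against 30.1 to 78.3). Klra8, a further marker of that list, was dim and went the other way (28.9 and 2.7 against 46.1 to 52.5). The erythroid markers Hba-a1 and Alas2 summed to 139 to 143 against 55 to 119. The part of such cells in the granzyme signals was not tested.

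Other serine protease genes located near the members were dim or not called. Of 9 such genes with a probe set, Gzmn, Ctsg, Mcpt1, Mcpt2, Mcpt4, Mcpt8, Prtn3 and Elane were dim, with no signal above 96.7 on any array. Cma1, encoding mast cell chymase, passed the filter at 130.8 and 112.2 against 151.6, 117.5 and 146.5 and was not called (0.16, limma adjusted p = 0.598).

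Genes of the wider cytotoxic programme were called in both directions. Over 6 lists and the neighbouring proteases, 58 genes were tested by their brightest probe set, of which 19 were called higher, 19 lower and 20 not called, with a median of -0.01. Among all 12446 genes so represented, 21.8% were called higher and 21.6% lower. Of 11 genes of granule loading and granzyme maturation, 4 were higher and 4 lower (median 0.06). Ctsc, encoding the cathepsin that activates granzymes, gave 5694 and 5413 against 5230, 6892 and 5340 and was not called (0.06), nor was Srgn, the proteoglycan core that holds granzymes in the granule (-0.03). Cst7, encoding cystatin F, an inhibitor of that class of cathepsins, was higher (2669 and 2876 against 4875, 5120 and 5149; 0.86, SE 0.09, limma adjusted p = 0.000121). The lysosomal protease genes Ctsl (-4.04, SE 0.26, limma adjusted p = 9.92e-06) and Ctsh (-2.16) were lower, and so was Igf2r (-1.22), encoding a receptor that sorts enzymes to lysosomes.

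Of 13 exocytosis genes 4 were higher, 2 lower and 7 not called (median -0.01). Sytl2, encoding a Rab27 effector, was higher (560.5 and 951.2 against 2516, 2600 and 2094; 1.68, SE 0.20, limma adjusted p = 0.000283), as were Stx11 (0.91) and Sytl1 (0.50), while Lyst, mutated in Chediak-Higashi syndrome, was lower (-1.19). Of 5 serpins, 2 were higher, 1 lower and 2 not called (median -0.04). Serpinb9, encoding the inhibitor of granzyme B that protects the killer cell, gave 1520 and 1984 against 1299, 1249 and 1558 and was not called (-0.35). Serpinb1a was higher by 4.62 (206.7 and 227.0 against 5744, 6399 and 5307; SE 0.12, limma adjusted p = 1.21e-07) and Serpinb6a by 1.17, and Serpinb6b was lower (-0.92).

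Transcription factors of the cytotoxic programme included 5 higher, 9 lower and 4 uncalled of 18 (median -0.40). Eomes, a T-box factor that drives perforin and granzyme B transcription, had transgenic signals of 1516 and 1700 and clone signals of 62.8, 90.3 and 65.3 (-4.14, SE 0.18, limma adjusted p = 1.23e-06). Tbx21, the related factor T-bet, was higher by 0.50. Bach2, a repressor of effector genes, was lower (-2.42), and Irf4 (2.21) and Prdm1, encoding Blimp-1 (1.75), were higher. Of 4 genes of the IL2 receptor and its kinases, the receptor chains Il2ra (1.15) and Il2rb (1.13) were higher and Jak1 (-1.74) and Jak3 (-0.59) lower (median 0.27). Among 6 genes of other killing molecules, Lta (2.29) and Tnf (1.04) were higher, Ltb lower (-0.40) and 3 not called (median 0.16). Fasl, encoding the ligand of the death receptor Fas, was among the uncalled ones (1369 and 1924 against 2068, 2320 and 1799; 0.33).

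**Figure D4:**
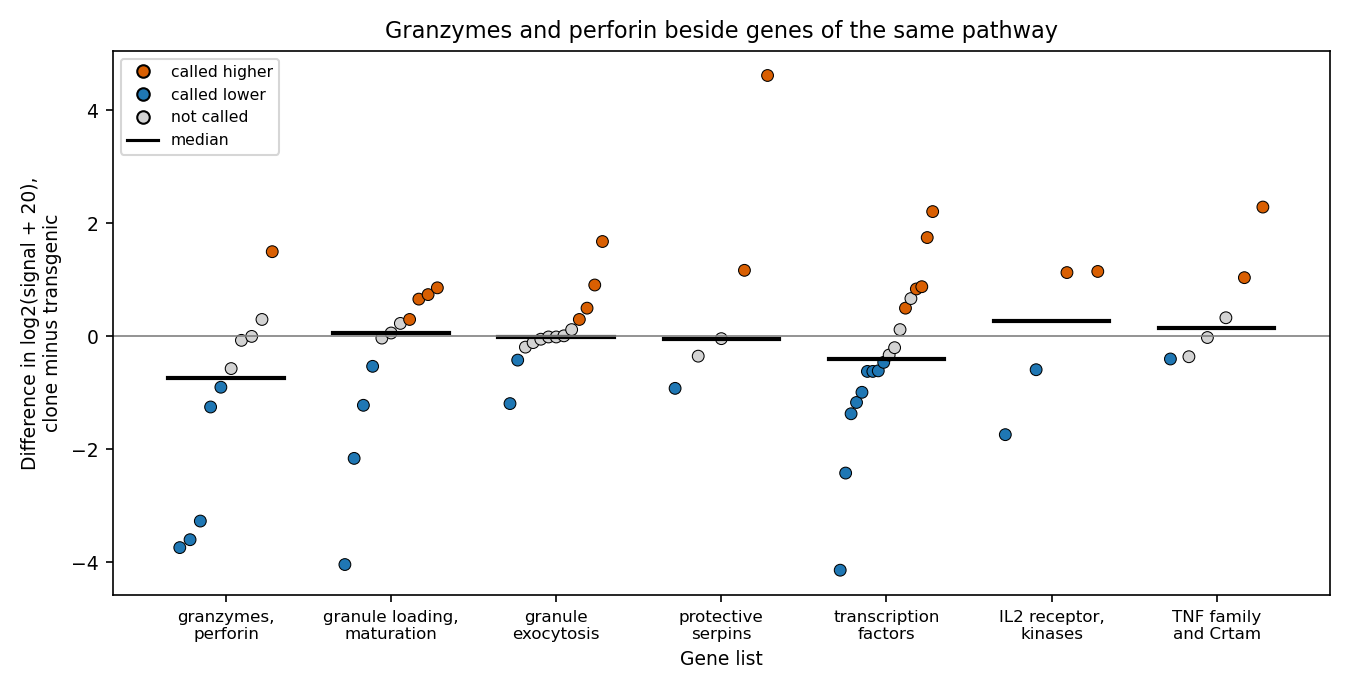
Difference in log2(signal + 20), clone minus transgenic, of the 10 tested member probe sets and of the tested genes of 6 pathway lists; each point is a probe set or gene, coloured by its call, and the bar is the median. The members' bar, at -0.74, rests on the Gzmd and Gzme probe sets and is -0.07 without them; the lists, with 1 probe set per gene, have medians from -0.40 to 0.27.

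The genes most like each member over the 5 arrays, by the root mean square distance of centred log2 profiles among 12446 genes, differed from member to member. Nearest to Gzma were Otud1 (0.08), Bst1 (0.13) and Nab2 (0.14), at transgenic signals of 300 to 505 and clone signals of 4 to 21. Nearest to Gzmk were Pik3r2 (0.06), Csf1 (0.07) and Pde11a (0.11), with clone signals of 281 to 682. Gzmc was followed by Fam234a (0.04), Ankrd28 (0.06) and Serpinb6b (0.06), and Gzmd, less closely, by Cnr2 (0.26), Ifitm1 (0.27) and Fabp4 (0.30). Nearest to Gzme were Mmp8 (0.15), Slc11a1 (0.24) and Nr2c1 (0.25), at transgenic signals of 69 to 682 and clone signals of 43 to 190. Nearest to Gzmb were Sh3kbp1 (0.01), Glmp (0.01) and Ccni (0.02), to Prf1 Myo1e (0.03), Endog (0.04) and Fpgt (0.05), and to Gzmm Rcc1l (0.04), Pink1 (0.05) and Man1c1 (0.06). These distances rest on 5 arrays in 2 groups and are descriptions.

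**Figure D5:**
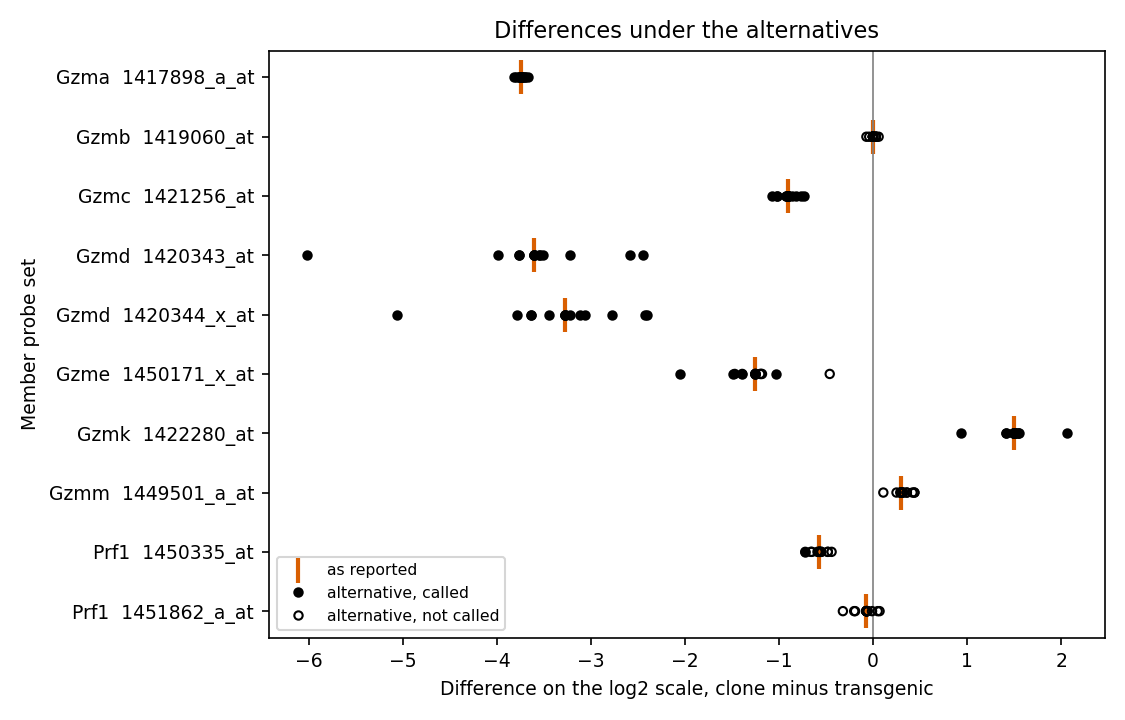
Difference of each tested member probe set as reported (orange bar) and under each alternative that gave a value (filled where called, open where not). Gzma, Gzmc and Gzmk stay on 1 side of 0 and called throughout. Both Gzmd probe sets do so too, but wherever a filter kept them they passed it only through their transgenic signals. Gzme loses its call under several alternatives, and Gzmb and the brighter Prf1 probe set lie on both sides of 0.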

How the data were processed

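Total RNA (8 µg per sample) was labelled with biotin and measured on 5 one-colour Affymetrix arrays, per the labels' protocols. The deposited values are array intensity per probe set on a linear scale; the submitters' processing notes name GCOS, Affymetrix's analysis program, and no version; the 2% trimmed mean is 500 on every array, so they were used as scaled, without further normalization. Median signals were 132.3 to 141.9, and the table holds no detection calls. Precision is limited by the number of arrays.

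Of 45101 probe sets, 64 controls were left out, 34945 have 1 gene symbol, 932 several and 9160 none. Probe sets with a mean signal of at least 88.2 (40th percentile) were fitted as log2(signal + 20) with limma 3.58.1 in R 4.3.3 (lmFit, eBayes with intensity trend, two-sided, Benjamini-Hochberg over 27022 probe sets). The design has 3 residual degrees of freedom (8.56 in total after moderation), and the median standard error was 0.17. In simulated data the share of false calls was above the 0.05 threshold. Far fewer probe sets were changed there than were called here, so the share in these data may differ and was not estimated. Calls close to the threshold are to be read with caution. Members, lists and tests were chosen with earlier results of these data known. List genes are represented by their brightest probe set. The rule for named genes takes all members, per list the 4 called genes of largest difference, and every neighbouring protease. It also takes the 3 genes nearest each tested member and the marker of highest mean signal in each group. Ctsc, Srgn, Serpinb9, Tbx21, Fasl and further markers (Cd8a, Cd4, Elane, S100a9, Ncr1, Mcpt4, Hdc, Alas2, Irf8, Siglech, Tcf4) were named after their values were seen. The same holds for the markers Cpa3, Ms4a2, Tpsb2, Fcer1g and Klra8. Of 122 list and marker genes, 14 had no probe set named here and were not analysed here. Promoter windows from RefSeq (GRCm38.p6), found for all 10 members, were aligned locally with match, mismatch, gap opening and extension scores of 2, -3, -5 and -2. No protein sequences were used here. Same-numbered arrays of the groups are not from the same animal.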

Additional observations from a re-analysis of the deposited data

How the results depend on the processing

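All 17 alternatives were run, and of 160 member values under them 143 kept direction and call. Gzma, Gzmc and Gzmk were called in each alternative that tested them. So were the Gzmd probe sets, but wherever a filter kept them they passed it only through their transgenic signals. Their repeated calls are therefore descriptions. Gzmb, never called, was 0.06 under quantile normalization and 0.03 with the replicate block, and leaving out 1 array at a time gave -0.07 to 0.03; the brighter Prf1 probe set ranged from -0.20 to 0.07 in those fits. The Gzme call ended under quantile normalization (adjusted p = 0.0577), a pseudocount of 1 (0.0515), no filter (0.104), the mean over probe sets (0.0539) and eBayes without trend (0.0712); the cause was not tested. The number of member probe sets called lower, 5 as reported, was 2 with the filter at the 60th percentile and 3 without cross-hybridizing probe sets, since fewer were then tested. It was 3 with the mean over probe sets, where the Gzmd probe sets count as 1 and Gzme lost its call. Over all probe sets 5358 were higher and 5971 lower, against 2742 and 2706 genes by the brightest probe set and 2631 and 2678 by their mean, where fewer features are tested, and 3606 to 5992 lower ones when 1 array was left out, the fewest without the first transgenic array. Partner genes called higher numbered 15 to 22 and lower 17 to 23 over the alternatives, against 19 and 19. A fit without 1 transgenic array assumes that the other varies like the clone arrays. The replicate numbers were not shown to pair arrays (correlations of deviations -0.01 and -0.08 for the same numbers), and with them as a replicate block 4552 were higher and 5083 lower, with 1 and 5 member probe sets. Signals near the top of the arrays (Gzmb, Gzma) and near the bottom (Gzmd, Gzmf, Gzmg) may limit the size of their differences, which was not tested.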
